A study of Mus musculus with 3 samples.

Results

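The narrow Isl1 peaks are the 855 peaks of the deposited list that spanned less than 500 bp, out of 14082 distinct peaks in all. They were selected on width alone, as end minus start after identical repeated lines were counted once, at any distance from a transcription start site (TSS). They made up 6.07% of the peaks and 2.5% of the bases that peaks covered. Isl1 occupancy was measured by chromatin immunoprecipitation and sequencing (ChIP-Seq) in mouse cardiac progenitor cells (CPCs) at day 5 of differentiation from E14 Tg(Nkx2–5-EmGFP) embryonic stem cells, a line that carries a green fluorescent reporter of the early cardiac gene Nkx2-5. There were 2 Isl1 ChIP samples and 1 input sample of chromatin that was not pulled down, and all 3 came from that same line and day. The methods of the study describe hanging drops and directed differentiation, and do not name the scheme used for ChIP-Seq. In directed differentiation, BMP4, Activin A, VEGF, bFGF and FGF10 were among the factors in the media. The labels name no sort of the cells before the ChIP. The methods describe a sort on the reporter at day 5 for hanging drops, and for RNA extraction in directed differentiation. They do not say whether the cells for ChIP-Seq were sorted. Other cells of the culture may thus be included, and the list holds no expression values with which the cell type could be checked. Only areas called in both ChIP samples are listed, without a score, fold enrichment or read number. The step that selected them can write the whole peak of 1 replicate, so the widths, and with them which peaks count as narrow, may rest on the peak edges of 1 replicate. The depth behind a peak is thus not known, the replicates cannot be compared with each other, and each 95% Wilson interval and each Fisher exact test below covers only the spread expected from counting peaks within this 1 list. Many peaks share repeated sequence, so they are not independent sites, and p-values that treat them as such are too small.

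Isl1, a transcription factor with LIM domains and a homeodomain, marks the second heart field, the progenitor pool that lengthens the heart tube at both poles. Homeodomains contact short DNA words with a TAAT core, and the LIM-homeodomain type word searched here was CTAATGG or CTAATTG. A ChIP-Seq peak is much wider than such a word, because sheared fragments extend to both sides of the bound base pairs, and its width depends on fragment length, read number and how many sites lie close together. Many peaks of transcription factors lie at CpG-rich promoters or at distal elements. Tandem repeats, also called microsatellites when the repeated unit is a few bases long, are frequent in the mouse genome between genes and in introns, and short reads within them can align to many places.

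The sequences below, read on the plus strand of mm9 from the reference genome, show what the centres of narrow peaks held. The first pair are the narrowest single-copy peaks within 1 kb of a TSS, the second pair the narrowest single-copy peaks beyond 10 kb, and the third pair the narrowest multi-copy peaks beyond 10 kb, outside exons in each case. A centre was called multi-copy where the median number of genome occurrences of its 31-base words was at least 2. Each is the central 100 bases of the peak, and capitals mark CpG dinucleotides.
Grb2 (chr11:115570579-115570678): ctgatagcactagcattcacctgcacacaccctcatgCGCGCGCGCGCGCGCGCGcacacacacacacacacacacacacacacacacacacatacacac
Mettl24 (chr10:40402584-40402683): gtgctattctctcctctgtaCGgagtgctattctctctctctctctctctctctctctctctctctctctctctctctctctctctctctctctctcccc
Gm17751 (chr1:76099156-76099255): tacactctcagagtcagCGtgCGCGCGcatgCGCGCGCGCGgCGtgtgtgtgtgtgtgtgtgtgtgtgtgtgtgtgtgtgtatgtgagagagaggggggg
Cpn2 (chr16:30236524-30236623): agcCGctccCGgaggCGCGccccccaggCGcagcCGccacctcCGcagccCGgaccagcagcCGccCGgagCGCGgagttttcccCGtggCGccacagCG
Slc30a8 (chr15:52018720-52018819): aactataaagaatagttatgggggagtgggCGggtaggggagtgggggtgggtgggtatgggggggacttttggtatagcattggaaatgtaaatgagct
Vmn1r227 (chr17:20850108-20850207): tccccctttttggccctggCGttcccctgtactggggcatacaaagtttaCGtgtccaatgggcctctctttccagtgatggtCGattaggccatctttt
The Grb2 peak, 298 bp wide and 718 bp upstream of the TSS of this adaptor gene of receptor tyrosine kinase signalling, was centred on a CG repeat followed by a CA repeat. The Mettl24 peak, 338 bp wide and 454 bp upstream of a methyltransferase-like gene, was centred on a CT repeat of 66 bases, although the median copy number over its 31-base words was 1. The peak assigned to Gm17751, a long noncoding RNA gene 386502 bp away, also had CG and GT repeats at its centre. The Cpn2 peak, 31044 bp from the gene of a carboxypeptidase N subunit, differed from these, with 69.5% GC in its central 200 bp and no repeat run over 10 bases. The remaining pair, near Slc30a8 and Vmn1r227, had 31-base words with medians of 69 and 285 genome copies.

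Tandem runs lay at the centres of many further members. A run was called where a unit of 1 to 6 bases repeated without a mismatch over at least 40 bases of the central 200. This measure was chosen after the data were seen, so it is given with intervals and no test. For each of the 4 units most frequent among narrow peaks, the longest run of at most 80 bases is shown with up to 15 bases on either side, and capitals mark the run. These examples were chosen after their values were seen.
Ggt5, unit AG (chr10:75057127-75057222): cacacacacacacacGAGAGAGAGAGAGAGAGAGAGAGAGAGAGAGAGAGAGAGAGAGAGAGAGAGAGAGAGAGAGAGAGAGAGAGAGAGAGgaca
F2rl2, unit AC (chr13:96441063-96441156): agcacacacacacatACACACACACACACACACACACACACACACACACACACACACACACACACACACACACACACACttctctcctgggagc
Hivep1, unit AGG (chr13:42102281-42102390): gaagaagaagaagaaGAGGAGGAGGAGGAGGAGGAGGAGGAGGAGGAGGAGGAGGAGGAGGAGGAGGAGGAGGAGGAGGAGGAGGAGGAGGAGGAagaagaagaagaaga
Sgk1, unit AAG (chr10:21523514-21523623): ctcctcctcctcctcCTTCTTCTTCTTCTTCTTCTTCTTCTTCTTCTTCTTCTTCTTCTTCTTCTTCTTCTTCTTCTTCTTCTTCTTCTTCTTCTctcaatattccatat
The runs assigned to Ggt5 and F2rl2 lay in introns, 4997 and 25797 bp from the TSS of the assigned gene, and those assigned to Hivep1 and Sgk1 lay between genes, 45042 and 78451 bp away. The most widely shared 31-base word among narrow peaks was an AG repeat, found in the centres of 163 narrow peaks (19.1%) and of 384 peaks in all, and it has 846614 copies in the genome. It is in capitals in the narrowest pair of peaks that hold it, again outside exons, between genes 463103 bp from the assigned TSS in the first and in an intron 135833 bp away in the second.
1700030C10Rik (chr12:20358554-20358644): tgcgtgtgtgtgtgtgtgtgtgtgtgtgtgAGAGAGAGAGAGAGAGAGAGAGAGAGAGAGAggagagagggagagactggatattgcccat
Fgf14 (chr14:124727546-124727636): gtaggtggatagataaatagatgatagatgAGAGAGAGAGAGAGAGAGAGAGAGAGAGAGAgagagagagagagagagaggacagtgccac

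Widths of the narrow peaks ran from 269 to 499 bp, with a median of 435 bp and quartiles of 384 and 470.5 bp. The other 13227 peaks had a median of 978 bp and reached 15349 bp. The limit of 500 bp did not fall at a gap in the widths: 85 peaks measured 490 to 499 bp and 89 measured 500 to 509 bp. Of those just inside and just outside, 51.8% (95% interval 41.3 to 62.1) and 53.9% (43.6 to 63.9) held a tandem run, and 9.41% (4.85 to 17.5) and 14.6% (8.74 to 23.4) lay within 1 kb of a TSS.

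Along the range of widths, the share of peaks with a tandem run was 60.8% (95% interval 51.1 to 69.7) under 350 bp, 64.1% at 350 to 399 bp, 56.6% at 400 to 449 bp and 51% at 450 to 499 bp. It was 41.9% at 500 to 599 bp, 22.1% at 600 to 799 bp, 6.92% at 800 to 999 bp and 1.22% at 1000 to 1499 bp. The share within 1 kb of a TSS went the other way, from 3.92% (1.54 to 9.65) under 350 bp to 8.8% (6.23 to 12.3) at 450 to 499 bp and 48.7% (47.2 to 50.1) at 1000 to 1499 bp. Mean GC of the central 200 bp was 52.1% ± 7.58 (SD, n = 102) in the narrowest bin and 58.6% ± 9.09 (SD, n = 341) just under the limit, against 69.7% ± 7.33 (SD, n = 4515) at 1000 to 1499 bp. Multi-copy centres did not follow width in 1 direction within the narrow peaks, with 27.5% (19.7 to 36.8) under 350 bp and 68.2% (62.1 to 73.7) at 400 to 449 bp.

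**Figure D1:**
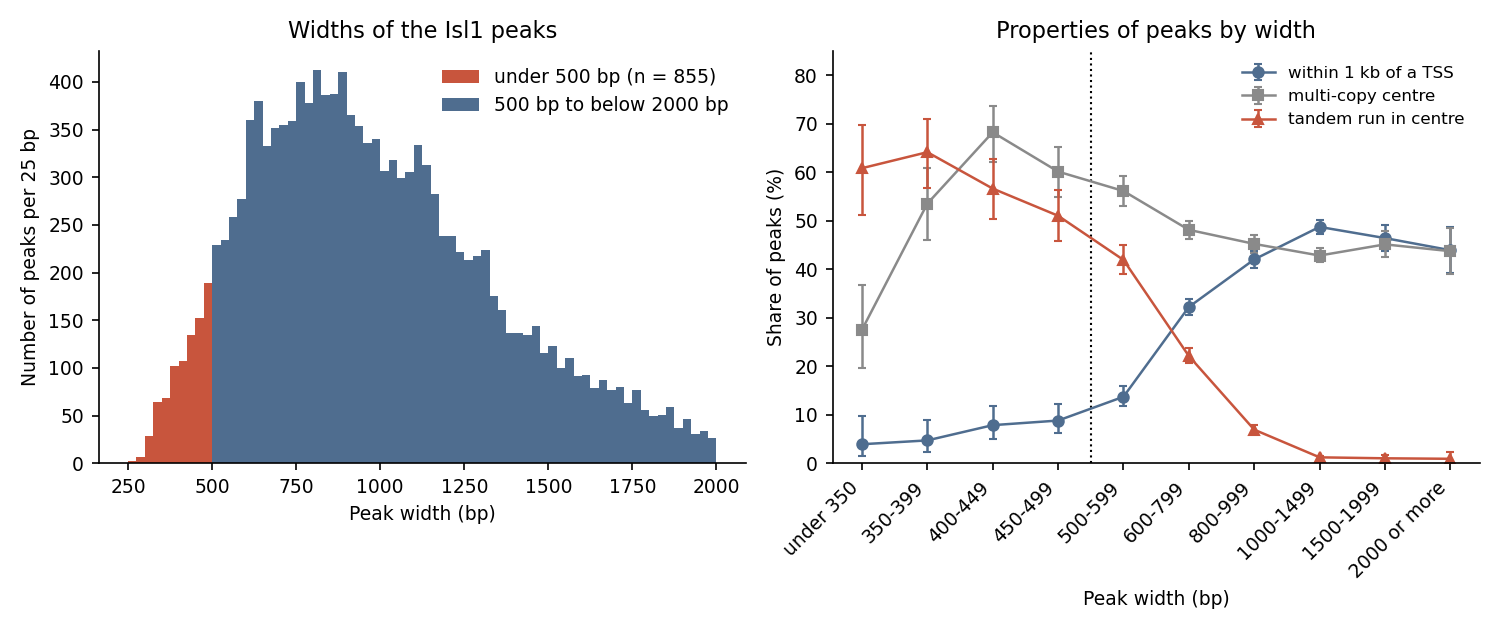
Left, number of Isl1 peaks per 25 bp of width, for peaks under 500 bp and from 500 to below 2000 bp. Right, share of peaks (%) in each width bin within 1 kb of a TSS, with a multi-copy centre by 31-base words, and with a tandem run of at least 40 bases, with 95% Wilson intervals and a dotted line at 500 bp; the run share goes from 60.8% under 350 bp to 1.22% at 1000 to 1499 bp.

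Narrow peaks mostly lay away from genes' start sites. Of the 855, 61 (7.13%) lay within 1 kb of a TSS, against 40.5% of the other peaks (odds ratio 0.113, 95% interval 0.0868 to 0.147, adjusted p = 3.22e-103, two-sided Fisher exact test). Except for the words, the Benjamini-Hochberg adjustment here and below was over 20 comparisons. In a restricted set of peaks it was over those of the 20 that could be computed there. A further 123 (14.4% against 10.2%, odds ratio 1.48) lay 1 to 10 kb away, 410 (48% against 26.8%, odds ratio 2.52) lay 10 to 100 kb away and 261 (30.5% against 22.5%, odds ratio 1.51) lay beyond 100 kb, with adjusted p = 0.000268, 1.75e-36 and 2.83e-07 by Fisher exact test. The median distance was 44.1 kb for narrow and 9.08 kb for other peaks. The share within 1 kb was lower among narrow than among other peaks on 19 of 19 autosomes. Among single-copy peaks the odds ratios lay farther from 1, at 0.0618 within 1 kb, 6.25 at 10 to 100 kb and 7.19 beyond 100 kb (the last from 74 of 366 narrow against 244 of 7171 other peaks, adjusted p = 1.97e-31, Fisher exact test). Single-copy peaks were not free of repeats, since 41.8% of these narrow and 3.33% of these other peaks held a tandem run of at least 40 bases. Among peaks without a tandem run, the share beyond 100 kb no longer differed in the same direction (odds ratio 0.986, adjusted p = 0.948, Fisher exact test), while the share within 1 kb still did (13.4% of 373 narrow against 44.8%, odds ratio 0.191, adjusted p = 1.33e-36). Against peaks of 500 to 1000 bp alone, the difference at 1 to 10 kb had an odds ratio of 1.17 and was not past the 0.05 threshold.

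In the GENCODE annotation of the same assembly, the midpoint of a narrow peak fell in an exon in 57 cases (6.67% against 33.1% of other peaks, odds ratio 0.145), in an intron in 324 (37.9% against 26.8%, odds ratio 1.67) and between genes in 474 (55.4% against 40.1%, odds ratio 1.86). The adjusted p-values were 3.29e-73, 1.68e-11 and 7.25e-18, by Fisher exact test. With 1 peak kept from each group of peaks whose centres share a 31-base word, which left 125 narrow peaks, the odds ratio for introns was 1.41 and not past the threshold.

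**Figure D2:**
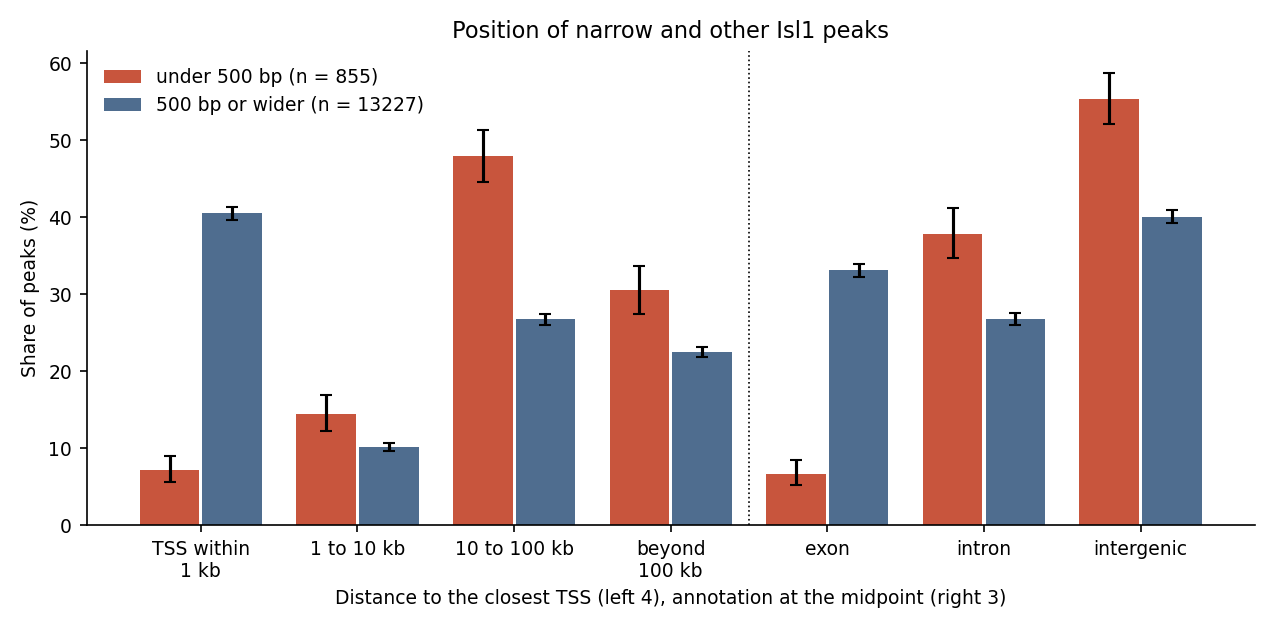
Share (%) of the 855 narrow and 13227 other peaks in each class of distance to the closest TSS (left 4 pairs) and with the midpoint in an exon, intron or intergenic sequence (right 3 pairs), with 95% Wilson intervals. Narrow peaks have the shorter bar within 1 kb (7.13% against 40.5%) and in exons (6.67% against 33.1%) and the taller bar in the other 5 classes.

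Tandem runs of at least 40 bases stood at the centre of 482 narrow peaks (56.4%, 95% interval 53 to 59.7) and of 1343 other peaks (10.2%, 9.65 to 10.7). In windows of the same size 2 kb to either side of narrow peaks the share was 2.11% on both sides. With a minimum of 24 bases the shares at the centre were 75.6% and 14.9%, and with 60 bases 26.3% and 5.91%, so narrow peaks had the higher share at each limit. It was also the higher on 19 of 19 autosomes. Among narrow peaks the share was 18% (10.4 to 29.5) within 1 kb of a TSS, 41.5% at 1 to 10 kb, 57.6% at 10 to 100 kb and 70.5% (64.7 to 75.7) beyond 100 kb. In other peaks it was 0.542%, 14.2%, 17.6% and 16.8% in the same classes. The median longest run was 44 bases in narrow and 11 bases in other peaks, and 2 narrow centres were a single run from end to end of the 200 bases.

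The repeated units differed in frequency. AG, which reads CT on the other strand, was the unit in 123 narrow peaks (14.4%, 95% interval 12.2 to 16.9) and in 1.13% (0.96 to 1.32) of other peaks. AC, or GT on the other strand, was the unit in 62 narrow peaks (7.25%) and 0.431% of other peaks. AGG (51 narrow peaks, 5.96%) and AAG (47, 5.5%) followed. ACGC was the unit in 23 narrow peaks (2.69%) and in 0.159% of other peaks. Units made only of A and G on 1 strand accounted for 66.2% of the narrow peaks with a run, and for 82.9% of the other peaks with one, among which AAG (223 peaks) and AGG (179) were the commonest.

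By these measures the narrow peaks fell into 3 kinds. A tandem run was present in 482. A further 160 (18.7%) were multi-copy by 31-base words without such a run, and 213 (24.9%) were single-copy without a run. In the other peaks, the same kinds made up 10.2%, 37.4% and 52.4%. The 213 single-copy narrow peaks without a run had a median GC of 63.5%, and 46 of them (21.6%, 95% interval 16.6 to 27.6) lay within 1 kb of a TSS. Among other peaks of that kind, 75.1% did (odds ratio 0.0912, adjusted p = 7.85e-57, Fisher exact test within peaks without a run). Among those of 500 to 1000 bp, 67% (65.4 to 68.6) did.

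Repetition of narrow peaks elsewhere in the genome depended on the length of the word counted. With 31-base words, 489 narrow centres (57.2%) were multi-copy against 45.8% of other centres (odds ratio 1.58, adjusted p = 1.91e-10, Fisher exact test). With 75-base words the order turned, to 143 narrow peaks (16.7%) against 29.2% (odds ratio 0.488). It turned as well with a width limit of 400 bp (odds ratio 0.894), and among peaks without a tandem run the odds ratio was 1.05 (adjusted p = 0.665, Fisher exact test), so no direction is given for the class as a whole. Within distance classes the 31-base measure differed in opposite directions. Within 1 kb of a TSS, 9 of 61 narrow centres (14.8%, 95% interval 7.96 to 25.7) were multi-copy against 2.48% (odds ratio 6.8, adjusted p = 3.29e-05, Fisher exact test). Beyond 10 kb, 428 of 671 (63.8%, 60.1 to 67.3) were, against 83% (odds ratio 0.361, adjusted p = 1.13e-28, Fisher exact test). Beyond 10 kb from a TSS, the multi-copy share by 75-base words was 18.3% in narrow and 54.2% in other peaks. With a width limit of 400 bp the difference within 1 kb was not past the threshold (odds ratio 3.39), nor was that beyond 10 kb with 1 peak kept per group of shared words (0.793). Beyond 10 kb, tandem runs were present in 62.6% of narrow and 17.2% of other peaks.

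**Figure D3:**
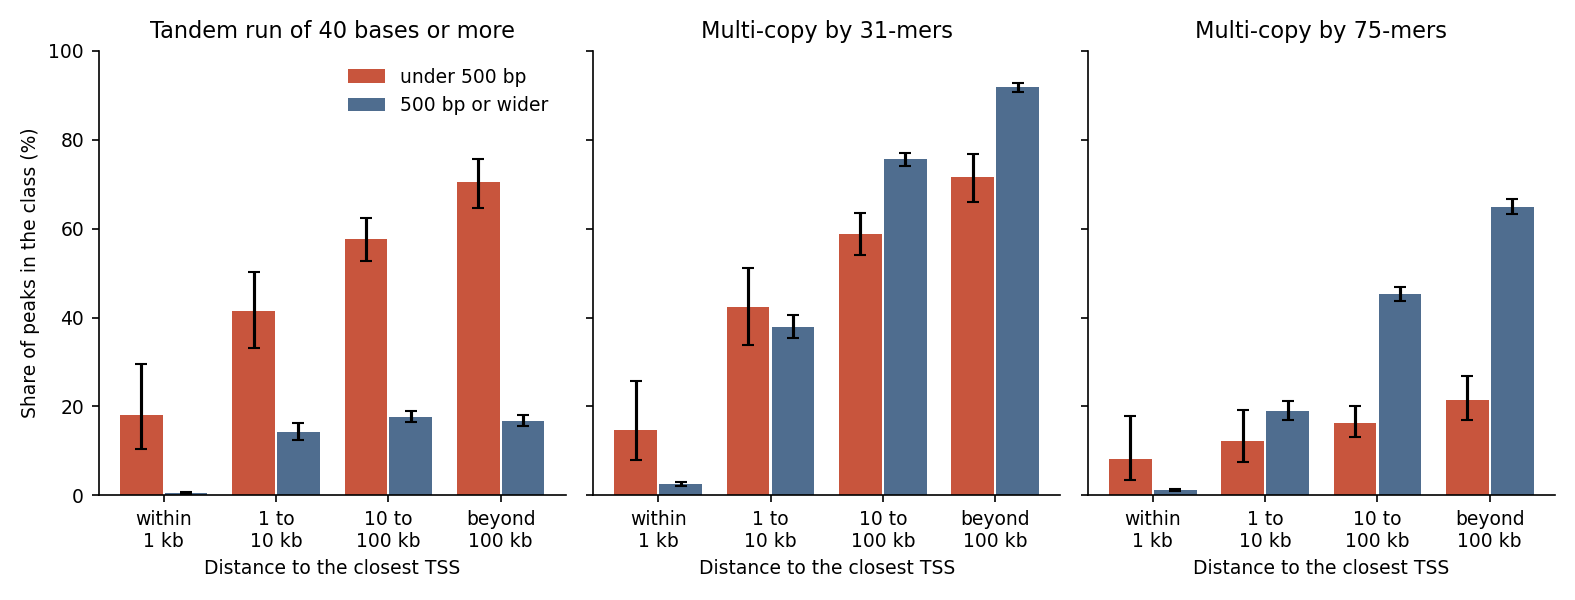
Share of peaks (%) in each class of distance to the closest TSS with a tandem run of at least 40 bases (left), with a multi-copy centre by 31-base words (middle) and by 75-base words (right), for narrow and other peaks with 95% Wilson intervals. Beyond 100 kb, tandem runs reach 70.5% of narrow and 16.8% of other peaks, whereas multi-copy centres by 75-base words reach 21.5% and 64.9%.

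Narrow centres were poorer in G and C than those of other peaks but richer than their surroundings. Mean GC of the central 200 bp was 56.4% ± 8.82 (SD, n = 855), against 67.2% ± 8.89 (SD, n = 13227). It was above the median of all peaks in 13.5% of narrow and 49.6% of other peaks (odds ratio 0.158, adjusted p = 1.40e-103, Fisher exact test). The difference held within classes of distance. Within 1 kb of a TSS, 18% of narrow and 48.1% of other peaks were above the median of that class (odds ratio 0.237, adjusted p = 2.51e-06), and beyond 10 kb 16.4% and 51.7% were (odds ratio 0.183, adjusted p = 3.29e-73, Fisher exact test). With a limit of 400 bp the former had an odds ratio of 0.364, and with 1 peak per group of shared words the latter had 0.674, neither past the threshold. In windows 2 kb away the mean GC was 43.1% ± 6.45 for narrow and 43.7% ± 6.66 for other peaks. The centre exceeded its flanks in 777 narrow peaks (90.9%). The region of raised GC was short: mean GC was 58.5% and 58.9% in the 50-bp bins beside the midpoint, 48.2% and 49% in the bins centred 125 bp away, and 43.8% and 43.2% in those 225 bp away. In other peaks it was still 62.6% and 62.7% at 225 bp. The members were chosen by width, so the bins at 225 bp lie inside every other peak, whereas every narrow peak ends before or within them. This contrast is therefore not independent of that choice.

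CpG dinucleotides are depleted in most of the mouse genome and kept at many promoters. The ratio of observed to expected CpG was above the median of all peaks in 32.5% of narrow and 51.1% of other peaks (odds ratio 0.461, adjusted p = 6.21e-26, Fisher exact test). Among peaks without a tandem run the odds ratio was 0.824 (adjusted p = 0.0921, Fisher exact test), not past the threshold. No CpG at all was found in the centres of 345 narrow peaks (40.4%), against 13.1% of other peaks. Within 1 kb of a TSS, 5 of 61 narrow centres (8.2%) lacked one, against 24 of 5355 other centres (0.448%). The mean ratio there was 0.743 ± 0.303 (SD) in narrow and 0.913 ± 0.186 (SD) in other peaks. Beyond 100 kb it was 0.339 ± 0.525 (SD, n = 261) in narrow and 0.49 ± 0.324 (SD, n = 2979) in other peaks. The mean was thus lower far from a TSS in both groups, described here without a test.

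**Figure D4:**
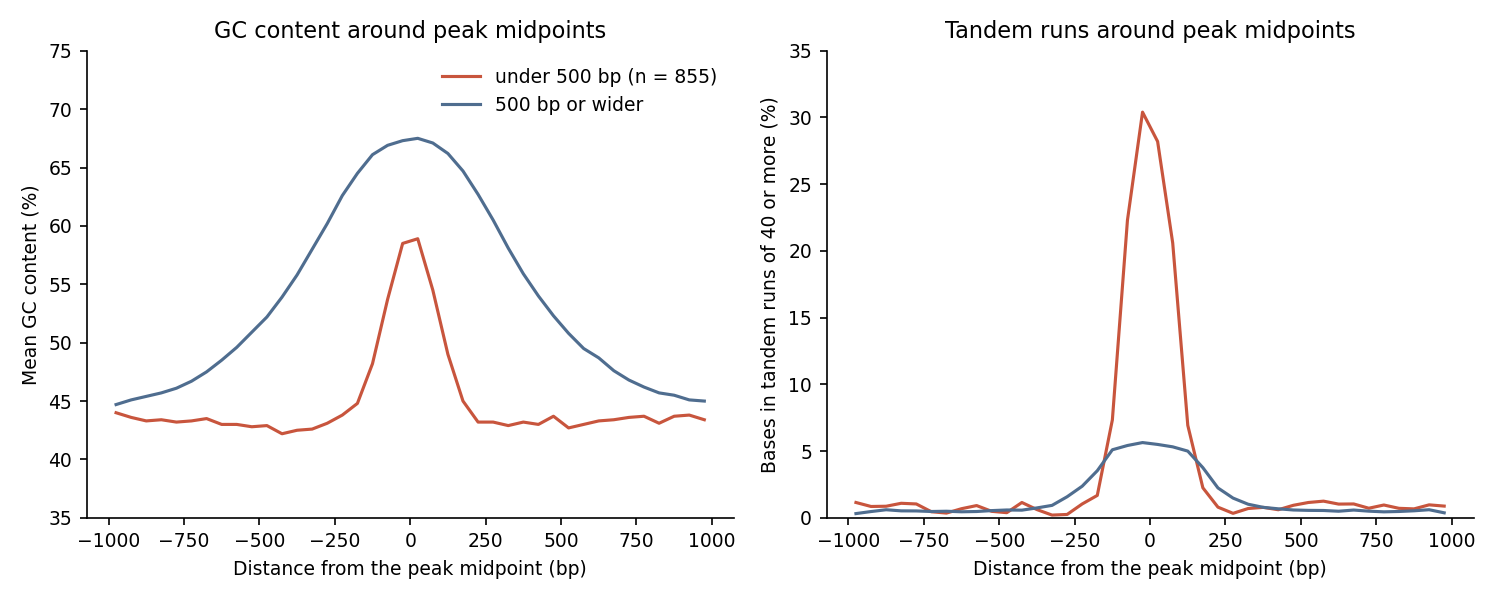
Mean GC content (%, left, axis from 35 to 75) and mean share of bases (%) inside tandem runs of at least 40 bases (right), in 50-bp bins up to 1000 bp to either side of the peak midpoint, for narrow and other peaks. Narrow peaks reach 58.9% GC and 30.4% of bases in runs beside the midpoint and are at 43.8% and 1.04% by 225 bp on the left side.

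Isl1-type words were rare in narrow centres. CTAATGG or CTAATTG was found on either strand in 8 of 855 (0.936%, 95% interval 0.475 to 1.84) against 0.37% of other centres (odds ratio 2.54, adjusted p = 0.0386, Fisher exact test with adjustment over 11 words, as for all words). The same letters reversed without complementing were found in 3 narrow centres (0.351%), a difference that was not tested. The share was below that in the flanks of narrow peaks 2 kb away (3.98% and 3.16%, adjusted p = 0.00345, exact McNemar test, larger of both flanks). In the central 100 bp the odds ratio was 0.773 and the direction turned. These 6 windows hold the word nearest to a TSS, with the word in capitals, outside exons. CCATTAG and CAATTAG are the word read on the other strand.
Ldoc1l (chr15:84388976-84389016): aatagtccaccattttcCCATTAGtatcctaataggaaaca
Lncppara (chr15:85517614-85517654): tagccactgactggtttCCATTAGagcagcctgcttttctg
Mecom (chr3:29895091-29895131): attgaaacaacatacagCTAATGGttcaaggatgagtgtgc
Ica1l (chr1:60069210-60069250): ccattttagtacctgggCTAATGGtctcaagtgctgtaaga
Foxp4 (chr17:48111268-48111308): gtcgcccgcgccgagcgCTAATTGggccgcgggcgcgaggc
Lrrc1 (chr9:77330245-77330285): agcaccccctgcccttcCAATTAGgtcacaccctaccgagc
The first lies 682 bp upstream of Ldoc1l and the second 16661 bp upstream of Lncppara, both between genes, and those of Ica1l and Lrrc1 lie in introns 30640 and 61680 bp from the TSS. The word also occurs near Mecom, a zinc finger transcription factor gene, in an intron 16954 bp from its TSS, and near Foxp4, a forkhead factor gene, 49679 bp upstream. In the Foxp4 window the surroundings were rich in CpG, with 75% GC in the central 200 bp. A further homeodomain word, TAATTA, was found in 6 narrow centres (0.702%), as often as its reversed letters (0.702%). Other centres held it in 0.242% (odds ratio 2.91, adjusted p = 0.0404, Fisher exact test). In the central 100 bp (odds ratio 1.41), among single-copy peaks (3.16) and beyond 10 kb (2.55) the difference was not past the threshold. The share was below that in the flanks of narrow peaks (6.78% and 6.9%, adjusted p = 1.13e-11, exact McNemar test, larger of both flanks).

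A further 9 words, of other factors, were compared in the same way. A word of GATA factors, which are zinc finger factors with roles in the heart, was counted as AGATAA or as AGATAG, and equally as TGATAA or as TGATAG. It was found in 87 narrow centres (10.2%, 95% interval 8.32 to 12.4) against 3.84% of other centres (odds ratio 2.84, adjusted p = 3.89e-14, Fisher exact test), but its reversed letters were found in 9.12% and both flanks in 31.6% and 34.4%. GGGCGG, the GC box of Sp factors at promoters, was found in 75 narrow centres (8.77%) against 44.2% (odds ratio 0.121, adjusted p = 5.98e-109, Fisher exact test), with 9.59% and 49.6% for its reversed letters. AAGATGGC, a word of the zinc finger factor YY1, was found in 17 narrow centres (1.99%, 1.25 to 3.16) against 16.4% of other centres (odds ratio 0.103, adjusted p = 1.74e-41, Fisher exact test), and its reversed letters were found in 0 narrow centres and 0.189% of other ones. Of the 2174 other peaks with this word, 1958 lay beyond 10 kb from a TSS and 132 were single-copy. Among single-copy peaks it was found in 1 of 366 narrow and 132 of 7171 other peaks (odds ratio 0.146, adjusted p = 0.0395, Fisher exact test). The E box CACGTG was found in 35 narrow centres (4.09% against 2.44%, odds ratio 1.71, adjusted p = 0.0134, Fisher exact test), as against 5.03% for its reversed letters. Its difference from the flanks (2.69% and 2.22%) was not past the threshold (adjusted p = 0.203, exact McNemar test, larger of both flanks). The odds ratio of 1.55 in the central 100 bp was not either (adjusted p = 0.243, Fisher exact test). Those among single-copy peaks (2.3), beyond 10 kb (2.97) and without a run (3.34) were. GCATGCGC, a word of NRF1, was found in 12 (1.4% against 0.635%, odds ratio 2.23, adjusted p = 0.0343, Fisher exact test), and its reversed letters in 0. The difference from the flanks of narrow peaks (0.468% and 0%) did not pass the threshold (adjusted p = 0.121, exact McNemar test, larger of both flanks). Neither did the odds ratio of 1.69 in the central 100 bp (adjusted p = 0.434, Fisher exact test). CCAAT was found in 89 (10.4% against 13%, odds ratio 0.779, adjusted p = 0.0417, Fisher exact test), but the direction turned among single-copy peaks (59 of 366 against 614 of 7171, odds ratio 2.05, adjusted p = 1.90e-05, Fisher exact test). Its odds ratio was also above 1 within 1 kb of a TSS (2.57, adjusted p = 0.0512, Fisher exact test) and among peaks without a run (1.09, adjusted p = 0.664), neither past the threshold. CATTCC of TEAD factors (27 narrow centres), AGGTGTGA of T-box factors (2) and AGGGGGCGC or AGGTGGCGC of CTCF (6) gave adjusted p = 0.38, 0.304 and 0.0688, by Fisher exact test. Within 1 kb of a TSS, 0 of the 11 words passed the threshold. Both strands were searched, no word was corrected for overlap with another, and a match is no measured binding site.

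Of the narrow peaks, the 61 within 1 kb of a TSS are described here on their own. Their median GC was 69.5%, 50 of them had over 60% GC, 52 were single-copy and 11 had a tandem run. The midpoint was in an exon in 30, in an intron in 13 and between genes in 18, and 16 lay within 100 bp of the TSS. An upstream position was more frequent than in other peaks within 1 kb (22 of 61, 36.1%, against 18.8%, odds ratio 2.44, adjusted p = 0.00169, Fisher exact test). Without peaks that had another peak within 1 kb the odds ratio was 1.58 and without those with a tandem run it was 1.7, and neither passed the threshold. The genes named next were chosen after their values were seen and do not stand for the 61 as a set. Rspo3, a secreted enhancer of Wnt signalling, had a narrow peak of 463 bp in an exon 131 bp downstream of its TSS (chr10:29255311-29255774). Ednra, the endothelin receptor A of neural crest and vessel development, had one of 449 bp in an intron 379 bp downstream (chr8:80247748-80248197). Bmper, a secreted modulator of BMP signalling, had one of 459 bp 538 bp upstream (chr9:23026753-23027212), and Bcl11a, a zinc finger repressor gene, had one of 362 bp 215 bp upstream (chr11:23977660-23978022). All 4 were single-copy. Rspo3, Ednra, Bmper and Bcl11a had 3, 4, 5 and 3 assigned peaks in all, of which 1 each was narrow. For others of the 61, such as Abat, Pts and Polr1b, the narrow peak was the only assigned peak.

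Narrow peaks were assigned to 803 gene names by the closest TSS, which does not show that a gene is regulated from there. Of these names, 753 had 1 narrow peak, 48 had 2 and 2 had 3. For 489 names (60.9%) a wider peak was listed too, and for 314 every assigned peak was narrow. A protein-coding gene was the closest in 680 narrow peaks (79.5% against 87.3% of other peaks, odds ratio 0.564, adjusted p = 1.29e-09, Fisher exact test). With a width limit of 400 bp the odds ratio was 0.72 and not past the threshold. Long noncoding RNA genes were the closest in 127 (14.9%, 95% interval 12.6 to 17.4, against 8.74%) and microRNA genes in 36 (4.21%, 3.06 to 5.77, against 2.38%), described here without a test.

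Of all 21900 protein-coding genes, 617 (2.82%) had an assigned narrow peak, and 7966 (36.4%) had a peak of some width. These backgrounds stand beside each list below. Across 10 gene lists with 352 genes, 14 (3.98%) had an assigned narrow peak, 1 each. A narrow peak that lay within a listed gene but was assigned to another name is not counted. Of these 14 peaks, 0 lay within 1 kb of a TSS, 12 lay beyond 10 kb, 8 had a tandem run and 10 were multi-copy.

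Among 50 cardiac transcription factors, 3 (6%) had a narrow peak, whereas 39 (78%) had a peak of some width. Tcf21, a basic helix-loop-helix factor of epicardial and pharyngeal progenitors, had one 16526 bp upstream, on an AAG run of 65 bases. Isl1 itself had one of 340 bp 64995 bp downstream of its TSS, between genes (chr13:117034731-117035071), with 61% GC and a 31-base copy number of 2. The narrow peak of Meis1, a homeodomain factor, lay 146794 bp downstream on an AG run of 69 bases, single-copy by the same measure. In heart field signalling 3 of 55 genes (5.45%) had one, and 2 of these had no wider peak. Smad6, an inhibitor of BMP signalling, had one in an intron 14720 bp downstream, single-copy and without a long run. The narrow peaks of Lef1, a nuclear factor of Wnt signalling, and of Cyp26a1, which degrades retinoic acid, were the only peak of each gene, 46010 bp upstream and 117583 bp downstream, with runs of 46 and 58 bases. Among 42 genes of chromatin remodelling and modification, Dpf1, which encodes a subunit of BAF complexes, had the only narrow peak (2.38%), 27381 bp downstream within an exon of Sipa1l3.

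In the lists of other lineages, 2 of 30 blood and endothelial genes (6.67%) had a narrow peak. These were Sox17, an endodermal and endothelial factor, 16523 bp downstream, and Cdh5, which encodes VE-cadherin and had no other peak, 173625 bp upstream on an AG run of 47 bases. Of 30 motor neuron genes, 2 (6.67%) had one, namely Isl1, described above and a member of both lists, and Nefm, a neurofilament gene, 85296 bp upstream on an AG run of 66 bases. Of 30 pluripotency genes, 3 (10%) had one. The narrow peak of Myc, a growth regulator, was its only peak and lay in its own intron 1669 bp downstream (chr15:61818346-61818785), single-copy with 71.5% GC and no run over 12 bases. Those of Klf4 and Dppa4, 467076 and 635602 bp upstream, held runs of 70 and 45 bases. Genes of the ribosome and translation (0 of 40, which allows a share of up to 7.5%), general housekeeping genes (0 of 30, up to 10%) and a list of 29 genes named in the study's discussion (0 of 29, up to 10.3%) had no narrow peak, although 17, 7 and 17 of them (42.5%, 23.3% and 58.6%) had a wider one. That last list does not hold every gene the study discusses, and leaves out Isl1 and Smad6, which have narrow peaks. The counts are small, and nothing particular to a list is read from them.

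The 10 genes with most narrow peaks, ties taken in alphabetical order, held 22 of them, of which 16 lay beyond 100 kb from the TSS, 15 had a tandem run and 14 were multi-copy. Dpp10, which encodes a partner of potassium channels, had 3 of its 6 peaks narrow. They lay 1093190 bp and 263831 bp downstream, both on tandem runs, and 150618 bp upstream, with no long run. Vwc2, which encodes a secreted BMP modulator, had 3 of its 7 peaks narrow, 666971, 551725 and 164207 bp upstream, on runs of AGAGG, AG and AC. Adcyap1, a neuropeptide gene, had 2 of 8, both on tandem runs, and Cadm2, a cell adhesion gene, had 2 of 6 within its own introns, on runs of AG and AC. The genes 1700003L19Rik, 1700008P02Rik, 2610316D01Rik and 4930572O13Rik had 2 each, 99577 to 1227113 bp from the TSS. Both narrow peaks of 9330162B11Rik lay within introns of Esrrg, an orphan nuclear receptor gene, and had no run of 40 bases. The 2 narrow peaks of 1010001N08Rik, 34 and 9837 bp upstream, had none either, and both were single-copy. Their midpoints lay in an exon and in an intron of Gata6, a GATA factor gene, to which neither was assigned. The narrowest 5 peaks of all, at 269, 272, 275, 280 and 283 bp, were assigned to Slc30a8, Vmn1r227, Gm17751, Cpn2 and Slc14a2, and all 5 were 10017 bp or more from the TSS.

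The spacing of narrow peaks depended on the choice of peaks. Another peak lay within 1 kb of 30 narrow peaks (3.51% against 3.35%, odds ratio 1.05, 95% interval 0.72 to 1.53) and within 10 kb of 116 (13.6% against 13.7%, odds ratio 0.988, 0.807 to 1.21), with adjusted p = 0.809 and 0.959 by Fisher exact test. Among peaks without a tandem run the odds ratio at 10 kb was 1.39 (adjusted p = 0.0275, Fisher exact test). With a width limit of 600 bp the odds ratios at 1 and 10 kb were 1.42 and 1.17 (adjusted p = 0.00584 and 0.027, Fisher exact test), and with 1 peak kept per group of shared words 2.23 and 1.6 (adjusted p = 0.0144 and 0.0355, Fisher exact test). Against peaks of 500 to 1000 bp they were 0.888 and 0.918, not past the threshold. Of the 30 neighbours within 1 kb, 26 were 500 bp or wider. By chromosome, 3.68% to 8.36% of the peaks of each autosome were narrow. Chromosome X had 15 (1.75% of narrow against 3.78% of other peaks, odds ratio 0.455, adjusted p = 0.00152, Fisher exact test), which did not hold among single-copy peaks (odds ratio 1.12) or against peaks of 500 to 1000 bp (0.597, not past the threshold).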

How the data were processed

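Isl1 ChIP-Seq was carried out on 2 ChIP samples and 1 input of day 5 CPCs, grouped by sample title. The only values used were the positions and TSS distances of 1 peak list that the authors deposited for both ChIP samples together, in bp on mm9. Per the methods of the study, the authors aligned reads with bowtie2, removed duplicates with Picard 1.136, called peaks with MACS14 without a model, removed blacklisted regions, kept areas common to both replicates with the -wa option of bedtools 2.15 intersect, an option that writes whole peaks of 1 replicate, and took the closest TSS from HOMER. Tool names were also given in the submitters' processing notes. How reads with several equally good positions were counted may bear on peaks at repeats, which was not tested.

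Of 14165 lines, 14082 were distinct, and 0 ran past a chromosome end of NCBI m37, which is mm9. Starts are uncertain by 1 bp. Features came from the central 200 bp and from windows 2000 bp to either side. Exons and introns came from GENCODE of that assembly. Deposited distances were used, although only 27.8% of them lay within 2 bp of distances computed from that annotation. With the computed distances, 85 narrow and 5823 other peaks lay within 1 kb of a TSS (odds ratio 0.14). Gene classes came from a RefSeq table of GRCm38, which left 8 of 9313 names unmatched and gave no coordinates. Copy number was the median genome count of 31-base words on both strands. Shares were compared by two-sided Fisher exact tests with Benjamini-Hochberg adjustment (scipy 1.17.1, statsmodels 0.14.6, numba 0.67.0, Python 3.11.15). The Fisher test, without the adjustment, was tried on simulated counts of independent peaks. That trial does not cover peaks that share repeated sequence, as many do here. Set tests and resampling over peaks were not run.

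Members and gene lists were chosen with earlier results of these data known. Genes named were the 10 with most narrow peaks, those of the 5 narrowest, up to 8 per list, and some chosen after their values were seen, as said there. Alternatives were other widths, comparison sets, distances, word lengths, windows and copy limits. The tandem run measure and its limits of 24 and 60 bases were chosen after seeing the data. The result of 1 gene list and the sequences and counts of 2 repeat units are not reported here.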

Additional observations from a re-analysis of the deposited data

Results flagged for a closer look

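The difference in multi-copy share between narrow and other peaks had opposite directions near and far from start sites. The odds ratio was 6.8 within 1 kb of a TSS and 0.361 beyond 10 kb, a ratio of 18.8 between both. A logistic model with an interaction of width class and distance class gave a likelihood ratio of 33.4 (p = 7.53e-09 against the chi-square distribution). The near value rests on 9 of 61 narrow peaks, and peaks that share repeated sequence are not independent, so this p is too small.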

How the results depend on the processing

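The share within 1 kb of a TSS, overall and among single-copy peaks, the share 10 to 100 kb away, GC against all peaks, exons and intergenic sequence kept direction and side of the 0.05 threshold in each alternative run for them. Of 188 alternative values for the 21 results that answer a comparison, 160 did so, 16 kept only the direction, 2 came past the threshold, 8 turned and 2 counts moved by over 1.5 times. Values below are odds ratios, narrow against other, and the cause was not tested unless stated. With a width limit of 400 bp: 1 to 10 kb 1.36, multi-copy 0.894 (turned), multi-copy within 1 kb 3.39, GC within 1 kb 0.364, chromosome X 0.488, protein-coding 0.72. With 600 bp: another peak within 1 kb 1.42 and within 10 kb 1.17 (turned). Against peaks of 500 to 1000 bp: 1 to 10 kb 1.17, another peak within 1 kb 0.888 (turned), chromosome X 0.597. Without peaks close to another: upstream 1.58. Keeping 1 peak per group of shared 31-base words leaves few repeated peaks by construction. It kept 125 of 855 narrow and 6905 of 13227 other peaks. Single-copy peaks were dropped unevenly too, with 108 of 366 narrow and 6570 of 7171 other ones kept. The narrow peaks left are thus a selected part. With this setting: upstream 1.4, multi-copy beyond 10 kb 0.793, GC beyond 10 kb 0.674, intron 1.41, another peak within 1 kb 2.23 and within 10 kb 1.6 (turned), chromosome X 0. Single-copy peaks: chromosome X 1.12 (turned). With 75-base words: multi-copy 0.488 (turned). Without tandem runs, an alternative added after seeing the data: beyond 100 kb 0.986 (turned), upstream 1.7, multi-copy 1.05, CpG 0.824, another peak within 10 kb 1.39 (turned).

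Of 11 words, 8 differed at the threshold, but 3 in the central 100 bp and 0 within 1 kb of a TSS. Single words that turned were CTAATGG or CTAATTG (0.773) and CATTCC (0.776) in the central 100 bp, CCAAT in single-copy peaks (2.05) and without tandem runs (1.09), and, within 1 kb, TAATTA (0), CCAAT (2.57), CATTCC (0.969), AGGTGTGA (0) and the CTCF word (1.76). No paired analysis was possible because both ChIP replicates are combined in 1 list, and for the same reason neither replicate could be left out in turn. Depth is unknown and limits what can be said of weak peaks.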
